A study of Bos taurus with 12 samples.

Results

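Interferon-stimulated genes are genes whose transcription rises when interferons bind their receptors. A set of 9 of them was followed here in the mammary gland (MG) of lactating cows: ISG15, MX1, MX2, IFI6, IFIT1, IFIH1, IRF1, IRF7 and RSAD2. Every non-control array probe whose RefSeq identifier maps to one of these symbols was taken, which gave 13 of the 43653 probes and 7 of the 9 genes. IFIT1 and IFIH1 had no such probe and were not analysed here. Of the 7 genes, 5 (ISG15, MX1, IFI6, IRF1 and IRF7, with 8 probes) were bright enough to be tested, whereas the 5 remaining probes, including all those of MX2 and RSAD2, were not.

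The samples were MG biopsies of multiparous Holstein cows in midlactation, each profiled on a one-colour (Cy3) bovine oligonucleotide array. The 12 arrays came from 6 cows, each sampled on day 0 with feed given *ad libitum* (CONT) and on day 6 of a feed restriction to 50% of the net energy requirement for lactation (REST), on alternating sides of the rear udder. The labels name no other treatment of either group and no unrestricted animals sampled on day 6, so restriction, time, udder side and an earlier biopsy cannot be told apart. The methods of the study exclude 1 Holstein cow for mastitis and the series description counts 5 cows, whereas the labels name 6 without marking any, so the counts of called probes, members and pathway genes and the changes of the 5 tested members and the named pathway genes were also computed with 1 cow left out at a time.

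Infected or alerted cells release interferons of type I (alpha, beta, omega), type II (gamma) or type III (lambda). Type I and III receptors signal through JAK1 and TYK2 to a complex that contains STAT2 and IRF9 and binds interferon-stimulated response elements, whereas interferon gamma induces IRF1. The products act at many steps of viral replication, and in the MG they are studied mainly in relation to infection and involution.

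Both arrays of a cow lay on 1 slide, with cows 1 and 2 sharing slide 1, cows 3 and 4 sharing slide 2 and cows 5 and 6 sharing slide 3, so that every slide held as many CONT as REST arrays. Slide 3 was dimmer, with 41.9 to 48.0% of spots well above background against 61.8 to 67.9% on the other slides. Luminal epithelial markers were well measured (8 of 9 genes tested), with a median normalized signal of 6.65 to 7.19 in CONT and 6.74 to 7.21 in REST, although of these 8 genes KRT8 (0.72, higher in 6 of 6 cows, limma adjusted p = 0.0089) and KRT18 (0.52, limma adjusted p = 0.068) rose, and CSN1S1 (-0.26, limma adjusted p = 0.0912) and CSN3 (-0.28, limma adjusted p = 0.0776) fell, calls that were all lost without the cow term (0.133, 0.508, 0.185 and 0.226). All signals are given in log2 units relative to the 75th percentile of their array, a signal is compared only within a probe, and a change is REST minus CONT. A probe was called when its adjusted p was under 0.1 in a limma fit with the cow as a block.

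None of the 5 tested genes was called between CONT and REST (0 of 8 probes by limma, paired or without the cow term, and 0 of 8 at an unadjusted p under 0.05). Of all 19403 probes tested, 16.0% were called, and 27.6% had an unadjusted p under 0.05. Counted by gene, 20.5% of 7930 genes had a called probe. With 1 probe a gene, 6.94% of genes were called higher and 9.27% lower in REST, and without the cow term 4.31% of probes were called. The mean signal of all 5 genes was higher in REST, with a median change of 0.11. The median over all tested genes was -0.01, a value that the scaling of each array keeps small. In biopsies, a change in the number of cells that express a gene and a change in RNA per cell cannot be told apart.

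**Figure D1:**
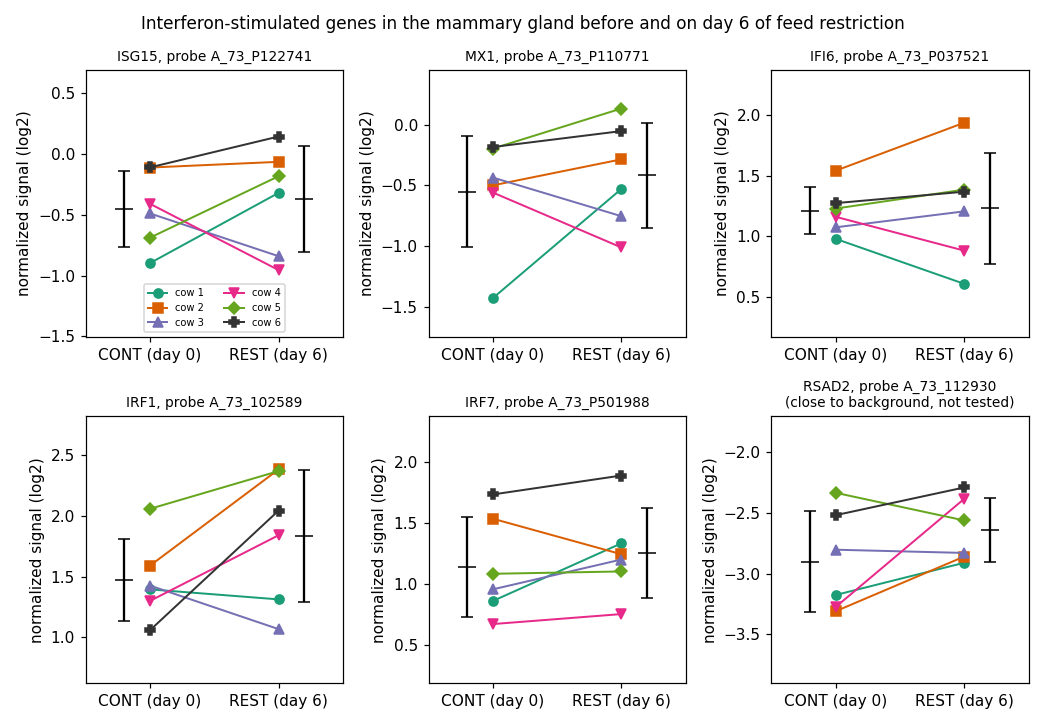
Normalized signal (log2, relative to the 75th percentile of the array) of 6 interferon-stimulated genes in CONT and REST. Each line joins both samples of 1 cow, black bars give the mean and SD of 6 cows, and every panel spans the same number of log2 units. CONT and REST overlapped in all 6 panels, and the RSAD2 probe was close to background.

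ISG15 encodes a ubiquitin-like protein that is attached to other proteins or secreted. On its brighter probe (A_73_P122741, transcript NM_174366), the signal in CONT ran from -0.90 through a median of -0.45 to -0.11, and in REST from -0.96 through -0.25 to 0.14. The groups overlapped almost completely. The change was 0.58, 0.05, -0.35, -0.55, 0.51 and 0.25 in cows 1 to 6, so that ISG15 was higher in 4 cows and lower in both cows of slide 2. The mean change was 0.08 (SE 0.156, 95% interval -0.27 to 0.43, limma adjusted p = 0.768). A second probe (A_73_119493) gave changes of 0.75, -0.04, -0.36, -0.53, 0.34 and 0.50 and a mean of 0.11 (limma adjusted p = 0.704). Both probes had the same sign in 5 of 6 cows, the exception being cow 2, where both values were near 0.

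MX1 encodes a dynamin-like GTPase that blocks incoming viruses, and its level in blood leukocytes of cattle is a familiar marker of interferon tau in early pregnancy. The brightest of its 3 probes (A_73_P110771, NM_173940) ran from -1.43 through -0.47 to -0.18 in CONT and from -1.01 through -0.41 to 0.13 in REST. Its changes were 0.90, 0.21, -0.32, -0.45, 0.33 and 0.13 in cows 1 to 6, with a mean of 0.13 (SE 0.164, 95% interval -0.24 to 0.51, limma adjusted p = 0.63). The largest rise, in cow 1, started from the lowest CONT signal of the probe. Probe A_73_103867 had the same sign in 6 of 6 cows and a mean change of 0.10 (limma adjusted p = 0.704), and its lowest CONT signal, -2.07, was also in cow 1. The last MX1 probe (A_73_P098801) was well above background on 0 of 12 arrays.

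ISG15 and MX1 thus varied between cows in a similar way. Averaged by slide, ISG15 changed by 0.31, -0.45 and 0.38 on slides 1, 2 and 3, and MX1 by 0.56, -0.39 and 0.23. The correlation of their changes over the 6 cows was r = 0.93, and that of their signals over the 12 arrays r = 0.76, both given as a description because the arrays share cows and slides. Over the 12 arrays ISG15 had nearly the same correlation with IRF7 (r = 0.73), while the changes of ISG15 and IRF7 had r = 0.21. All signs of the 4 tested ISG15 and MX1 probes were kept under a median shift and quantile normalization, and with the background modelled by normexp only 1 MX1 probe turned, in cow 6. The SD of the change over cows exceeded that of 84.9% of tested probes for ISG15 and 87.7% for MX1. Cow and slide are nested, and their part in the split was not tested. With a mean near 0 and cows on both sides, the sign of the mean rested on single animals. Without cow 1 it was -0.018 for ISG15 and -0.019 for MX1. For ISG15 it was also below 0 without cow 5 (-0.0036) and without slide 3 (-0.068).

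**Figure D2:**
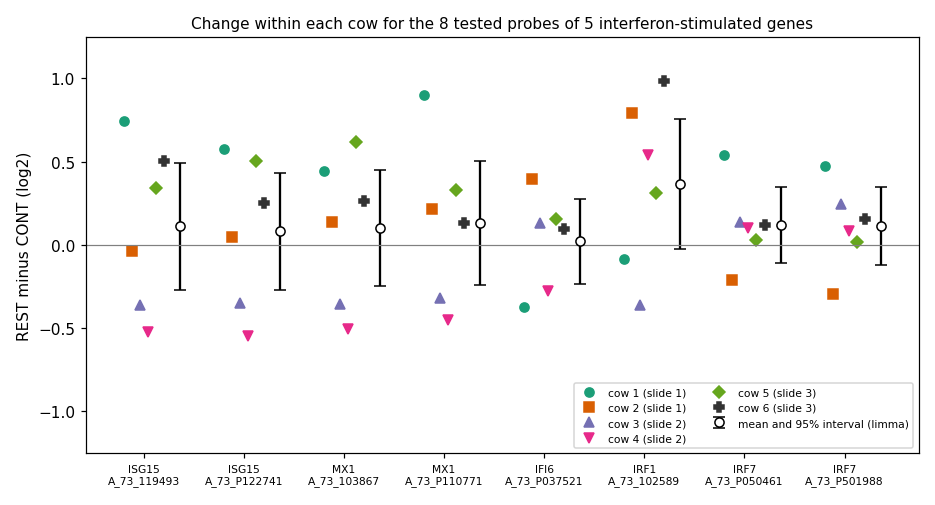
Change within each cow (REST minus CONT, log2) for the 8 tested probes of ISG15, MX1, IFI6, IRF1 and IRF7. Coloured symbols are cows and open circles the mean with its 95% interval from limma (n = 6 cows); all 8 intervals include 0, and cows 3 and 4 lie below 0 on all 4 probes of ISG15 and MX1.

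IFI6 encodes a small membrane protein that protects cells from apoptosis. Its only probe (A_73_P037521, NM_001075588) ran from 0.98 through 1.20 to 1.54 in CONT and from 0.61 through 1.29 to 1.94 in REST. The spread was wider in REST, with an SD of 0.46 against 0.19 in CONT, and this difference in spread was not tested. Changes were -0.37, 0.39, 0.13, -0.28, 0.16 and 0.09 in cows 1 to 6. The mean change of 0.02 (SE 0.112, 95% interval -0.23 to 0.28, limma adjusted p = 0.923) was the nearest to 0 of the 5 genes and was below 0 when cow 2, 3 or 5 was left out. In cow 1 IFI6 was lower in REST while ISG15 and MX1 were higher, and over the 6 cows its changes had r = 0.0037 with those of ISG15 and r = -0.17 with those of MX1.

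IRF1 is a transcription factor that interferon gamma induces and that itself activates antiviral and antigen presentation genes. Probe A_73_102589 (NM_001191261) ran from 1.06 through 1.41 to 2.06 in CONT and from 1.07 through 1.94 to 2.38 in REST. The changes of -0.08, 0.79, -0.36, 0.54, 0.31 and 0.98 in cows 1 to 6 put REST higher in 4 cows. The mean change of 0.36 was the largest of the 5 genes (SE 0.172, 95% interval -0.03 to 0.76, limma adjusted p = 0.207; 0.469 without the cow term). Unlike ISG15 and MX1, IRF1 was higher in cow 4, and its changes had r = 0.04 with those of ISG15. IRF1 was the only one of the 5 genes to pass the threshold under any alternative run: it was called when cow 3 was left out (0.51, limma adjusted p = 0.098) and when the background was modelled by normexp (0.41, limma adjusted p = 0.065). In the other direction, the change was 0.24 without cow 6 (limma adjusted p = 0.399) and 0.22 without slide 3 (0.472). Its second probe (A_73_P102536) was well above background on 3 of 12 arrays and was not tested.

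IRF7 is the transcription factor that amplifies type I interferon production. Its brighter probe (A_73_P501988, NM_001105040) ran from 0.67 through 1.02 to 1.74 in CONT and from 0.75 through 1.22 to 1.89 in REST. Cow 4 was lowest and cow 6 highest in both periods. The changes were small beside this spread between cows, at 0.47, -0.29, 0.25, 0.08, 0.02 and 0.16, with a mean of 0.11 (SE 0.104, 95% interval -0.12 to 0.35, limma adjusted p = 0.509). That mean was 0.042 without cow 1 and 0.20 without cow 2. A second probe (A_73_P050461) had the same sign in 6 of 6 cows, differed from the first by at most 0.11 in any cow and had a mean change of 0.12 (limma adjusted p = 0.477). The SD of the change over cows exceeded that of 47.9% of tested probes, near the middle of the array.

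RSAD2 (viperin, an enzyme that makes an antiviral nucleotide) was close to background. Probe A_73_112930 (NM_001045941) was well above background on 9 of 12 arrays, and the 3 arrays where it was not were all on the dim slide 3. The signal ran from -3.31 through -2.99 to -2.33 in CONT and from -2.91 through -2.70 to -2.29 in REST, with changes of 0.27, 0.45, -0.03, 0.89, -0.23 and 0.23. The mean of 0.26 (SD 0.39, n = 6) had a limma adjusted p of 0.331 when all probes were tested without the filter, and turned to -0.19 with the background modelled by normexp, so it has no settled direction. A second RSAD2 probe (A_73_P269936) was well above background on 0 of 12 arrays. MX2, the nuclear relative of MX1, had 1 probe (A_73_115858, NM_173941), well above background on 0 CONT arrays and 1 REST array, so no change is given.

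Read by cow, the 5 tested genes were all higher in REST in cows 5 and 6, 4 of 5 were higher in cow 2, 3 of 5 in cow 1, and 2 of 5 in cows 3 and 4. The counts of cows 1 and 5 depend on the scaling. Under a median shift IRF7 turned from 0.019 to -0.013 in cow 5, and IRF1 from -0.082 to 0.0076 in cow 1. The median over the 5 genes was 0.47, 0.21, -0.32, -0.28, 0.31 and 0.16 in cows 1 to 6. The median over all tested genes ran from -0.05 to 0.01. Scaling each array to its own signal level keeps that median small, so it cannot show whether the swings are particular to the 5 genes. The genes whose signal was nearest to the mean of the 5 over the 12 arrays, among 7925 compared, were LAMP1 (r = 0.94), a lysosomal membrane protein, CRYBG2 (r = 0.91), TRIM44 (r = 0.91), OAS1Y (r = 0.90), an oligoadenylate synthetase of the antiviral RNase L system, and TWF2 (r = 0.90), an actin-binding protein. OAS1Y, itself an interferon-stimulated gene, changed by 0.27, 0.17, -0.14, -0.52, 0.64 and 0.51, with a mean of 0.15 (limma adjusted p = 0.538). Its signs were those of ISG15 in all 6 cows, but it was picked for its likeness to the mean of the 5 genes on these arrays, and the other 4 nearest genes were all higher in REST in cow 3. It has close paralogues, whose transcripts its probe may not separate.

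The enzymes that attach ISG15 to proteins are described next. They were chosen for description after their values were seen, save HERC6 and USP18. UBA7, which activates ISG15, had a mean change of 0.22 (limma adjusted p = 0.231). UBE2L6, the conjugating enzyme, rose by 0.49 (SE 0.165, higher in 5 of 6 cows, limma adjusted p = 0.098, and 0.226 without the cow term), a call lost in 5 of 6 fits that left out 1 cow. The call was also lost under quantile normalization (limma adjusted p = 0.103), a median shift (0.1004) and with the slide as block (0.142). HERC6, the ISG15 ligase of the mouse, fell by 0.77 (SE 0.139, limma adjusted p = 0.0193; 0.092 without the cow term), from 2.21 through 2.50 to 3.08 in CONT to 1.14 through 1.78 to 2.57 in REST. HERC6 was lower in 6 of 6 cows and called on 3 of 3 probes, although in cow 6 the change was -0.05 against -0.69 to -1.14 in the other cows. HERC5, the human ligase, was well above background on 3 CONT and 4 REST arrays and was not tested. USP18, which removes ISG15 and restrains type I signalling, was well above background on 10 of 12 arrays, missing both of cow 6, and was not tested.

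Upstream of the 5 genes, no interferon gene could be tested. Of 8 ligand genes with a probe, 0 passed the filter. A probe of IFNB3 and one of IFNT3 were each well above background on 4 CONT and 4 REST arrays, whereas both probes of IFNG were so on 0 of 12 arrays, where a change was not detectable. Among receptors and kinases, 1 of 5 tested genes was called on its brightest probe, the one used for all counts over gene lists. IL10RB and TYK2 each had 1 other probe called. All 3 IL10RB probes had a higher mean in REST. The 2 TYK2 probes disagreed, as the called one was higher in REST and the brightest one lower (-0.28, lower in 5 of 6 cows, limma adjusted p = 0.103). IFNGR1, the ligand-binding chain of the interferon gamma receptor, rose by 0.40 (SE 0.120, higher in 5 of 6 cows, limma adjusted p = 0.073). That call was lost without the cow term (0.283) and in 5 of 6 fits that left out 1 cow. IFNAR2, a chain of the type I receptor, had a mean change of 0.27 (higher in 5 of 6 cows, limma adjusted p = 0.147) and was called without cow 5 (0.35, limma adjusted p = 0.0685) and without slide 3 (0.36, 0.0967). Its partner IFNAR1 was well above background on 0 CONT and 2 REST arrays and was not tested.

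None of the 9 tested STAT and IRF genes outside the set was called by limma (0 higher, 0 lower, median change -0.01). STAT2 had a mean change of 0.29 (higher in 5 of 6 cows, limma adjusted p = 0.176) and IRF9 of 0.21 (5 of 6, limma adjusted p = 0.148). STAT2 passed the threshold only without cow 5 (limma adjusted p = 0.0715), and IRF9 only with the background modelled by normexp (limma adjusted p = 0.0959). Of 11 sensors and adaptors, 1 was called, the IRF-activating kinase IKBKE, which rose by 0.70 (SE 0.157, higher in 5 of 6 cows, limma adjusted p = 0.0344; 0.213 without the cow term and 0.102 without cow 4), and TRIM25 had a called probe other than its brightest. Of 7 feedback inhibitors, 0 were called by limma, with a median change of -0.12.

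**Figure D3:**
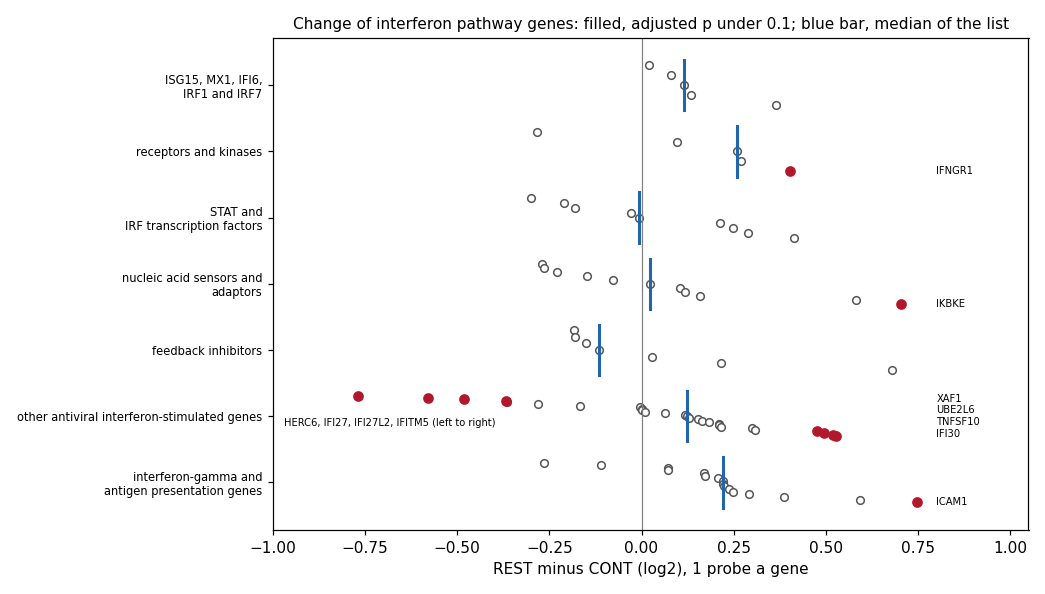
Mean change (REST minus CONT, log2, 1 probe a gene) of the 5 tested members and of the tested genes of 6 interferon pathway lists. Filled points have a limma adjusted p under 0.1 and are named, and blue bars are list medians, which run from -0.12 for feedback inhibitors to 0.26 for receptors and kinases.

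The wider antiviral genes moved in both directions. Of 27 tested, 4 rose, 4 fell and 19 were not called, with a median change of 0.12. That is 14.8% of the list in each direction, beside 6.94% of all genes higher and 9.27% lower. Those that rose were IFI30, a lysosomal thiol reductase used in antigen processing (0.53, SE 0.098, higher in 6 of 6 cows, limma adjusted p = 0.0208; 0.402 without the cow term), the death ligand TNFSF10 (0.52, SE 0.108, 6 of 6, limma adjusted p = 0.0292; 0.133 without it), UBE2L6 and XAF1 (0.47, limma adjusted p = 0.0587; 0.355 without it). With the cow as a random block, IFI30 was just above the threshold (limma adjusted p = 0.100065). Those that fell were HERC6, IFI27 (-0.58, SE 0.112, lower in 6 of 6 cows, limma adjusted p = 0.0227; 0.049 without the cow term), IFI27L2 (-0.48, limma adjusted p = 0.0682; 0.179 without it) and IFITM5 (-0.37, limma adjusted p = 0.0376; 0.429 without it and 0.122 with the cow as a random block), the last a family member known for its role in bone. XAF1, IFI27L2 and IFITM5 were named after their values were seen, and with 1 cow left out their calls were kept in 3, 2 and 4 of 6 fits. IFI27, like IFI6 a small interferon-inducible membrane protein, ran from 1.56 through 1.81 to 2.12 in CONT and from 0.90 through 1.19 to 1.62 in REST, with 1 REST value inside the CONT range.

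Of 16 tested genes of the interferon gamma response and antigen presentation, 1 was called. ICAM1, an adhesion molecule for leukocytes, had a mean change of 0.75 (SE 0.129, higher in 6 of 6 cows, limma adjusted p = 0.0175; 0.068 without the cow term). It was well above background on 5 CONT and 6 REST arrays, so it was tested only through the group where it was higher, and with the background modelled by normexp the change was 0.16 (limma adjusted p = 0.388). ICAM1, CXCL11 and IDO1 entered this list through REST alone, which favours higher values in REST. Over the other 13 genes the median change was 0.21, and B2M had a called probe other than its brightest. Over all 73 tested pathway genes outside the set, 7 were called higher (9.59%) and 4 lower (5.48%), beside 6.94% and 9.27% of all genes, and the median change was 0.12. Of the 73 genes, 8 passed the filter through REST alone and 0 through CONT alone, and over the 65 that passed in both the median change was 0.097. Of all 7930 tested genes, 509 passed through REST alone and 83 through CONT alone, and the median over those that passed in both was -0.016. ICAM1, which passed the filter through REST alone, is among the 7 called higher. The count without the cow term was 1 higher (ICAM1) and 2 lower, and without slide 3 it was 9 higher and 8 lower. When all probes were tested without the filter it was 0 in each direction by limma.

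Some leukocyte markers were higher in REST as well. Of 19 tested, 4 rose (CD3E, CD8A, CORO1A and LAPTM5) and 0 fell (21.1% higher, beside 6.94% of all genes), while 7 of the 19 had a lower mean in REST, and the median change was 0.17. CD8A and 3 other markers of the 19 passed the filter through REST alone, beside 509 of all 7930 tested genes. The calls of CD3E, CD8A, CORO1A and LAPTM5 were lost without the cow term (limma adjusted p = 0.226 to 0.494). The median signal of the 19 markers ran from -0.10 to 0.26 in CONT and from -0.05 to 0.80 in REST. PTPRC, which marks all leukocytes, had a mean change of -0.15 (limma adjusted p = 0.348). Neutrophil markers had 0 of 3 tested genes called by limma. Some markers of other cells were called too. Of 5 endothelial genes 1 was called, VWF, which rose by 0.54 (higher in 6 of 6 cows). Its limma adjusted p was 0.0073, and 0.0541 without the cow term. Of 5 myoepithelial genes 1 was called, ACTA2, which fell (-0.38, limma adjusted p = 0.0857, and 0.450 without the cow term). However, 3 of these 5 had a higher mean in REST, and their median change was 0.04. FABP4, the only tested gene of the adipocyte list, fell as well (-0.35, limma adjusted p = 0.0447, and 0.194 without the cow term). Its signal ran from 7.14 to 7.72 in CONT, and the 2 other adipocyte genes with a probe were not tested. The call therefore cannot be assigned to adipocytes. Of 6 fibroblast genes, 0 were called by limma on their brightest probe (1 other probe of COL1A1 was), with a median change of -0.36. The part of these cell types in the values of the interferon genes was not tested.

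Single cows held much larger changes than the means. In cow 6, several genes of the interferon response were far higher in REST: the chemokine CXCL10 by 2.17, the chemokine CXCL11 by 2.98, the tryptophan-degrading enzyme IDO1 by 3.91 and the RNA sensor DHX58 by 2.08, beside 0.98 for IRF1, 0.25 for ISG15 and 0.13 for MX1. In the CONT sample of that cow, CXCL11, IDO1 and DHX58 were not well above background, so those 3 differences start from a background signal, whereas CXCL10 was well above background on all 12 arrays. In the other cows CXCL10 changed by -0.20 to 0.39, whereas DHX58 was also higher in REST in cows 1 to 4, by 0.17 to 0.82, CXCL11 in cow 5, by 0.96, and IDO1 in cow 2, by 0.49, and in cow 5, by 1.67, again from a CONT signal not well above background. The mean changes of CXCL10 (0.39), CXCL11 (0.22), IDO1 (0.59) and DHX58 (0.58) were not called (limma adjusted p = 0.412, 0.804, 0.55 and 0.21). DHX58, tested through REST alone, passed the threshold without slide 3 (0.49, limma adjusted p = 0.0583), and without cow 5 (0.81, 0.0839), a fit that keeps the difference from background of cow 6. With the background modelled by normexp, the change of DHX58 was 0.067 (limma adjusted p = 0.767). Without slide 3, CXCL10 was at -0.027, CXCL11 at -0.66 and IDO1 at -0.50.

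The cow with the largest rise of ISG15 and MX1 on their brightest probes, cow 1, had another profile. Acute phase genes were far higher in its REST sample, SAA3 by 4.35, M-SAA3.2 by 4.83 and LBP by 2.26, while IRF1 changed by -0.08 and IDO1 by -1.11. Cow 2 had the highest SAA3 signal of each period, 6.26 in CONT and 7.35 in REST, with an ISG15 change of 0.05. SAA3 and M-SAA3.2 are near-identical copies whose probes may share transcripts, and neither they nor LBP were called (limma adjusted p = 0.177, 0.108 and 0.399), although M-SAA3.2 was called without cow 1 (0.81, limma adjusted p = 0.0329), under normexp (0.0528) and among probes well above background on all 12 arrays (0.0938), and SAA3 under normexp (0.0880). Of 10 tested mastitis and acute phase genes, 1 was called (LTF, higher; limma adjusted p = 0.213 without the cow term) and the median change was 0.33. The single-cow genes of both cows, the members apart, were chosen after their values were seen, and the part of an udder infection in the interferon values was not tested.

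**Figure D4:**
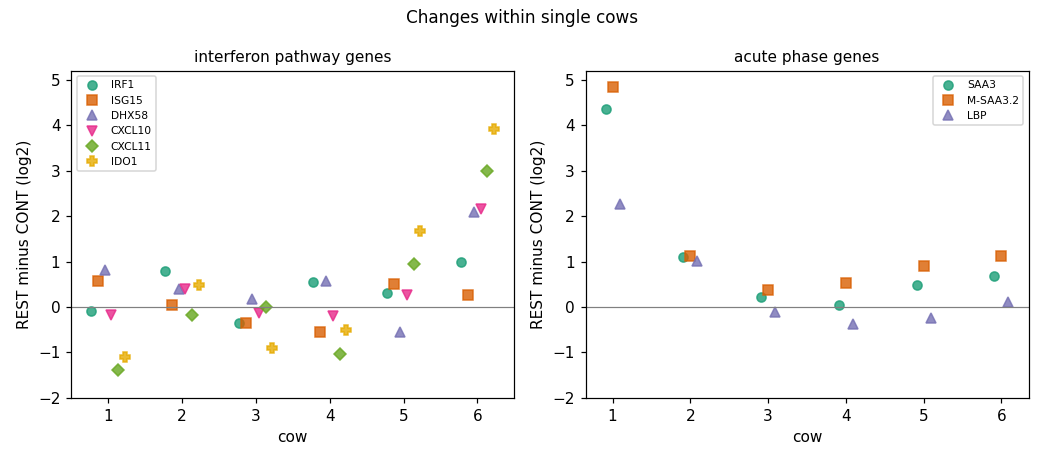
Change within each cow (REST minus CONT, log2). The left panel shows IRF1, ISG15 and 4 interferon pathway genes, with CXCL10 at 2.17 in cow 6 and IDO1 there at 3.91 from a CONT signal not well above background, and the right panel shows 3 acute phase genes, with SAA3 at 4.35 in cow 1; each symbol is 1 probe and has no error of its own.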

How the data were processed

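The members and gene lists were chosen with earlier results of these data known. The authors amplified and labelled 50 ng of total RNA with Cy3 and, per the file headers, extracted spot intensities with Agilent Feature Extraction 11.0.1.1. The deposited files hold background-subtracted, detrended intensity on a linear scale, with no scaling between arrays, and the series table holds the same values (45220 of 45220 cells per array within 1e-05). Here log2 intensity minus the 75th percentile of the array's non-control spots was computed, repeat spots were averaged, and 1 to 13 spots marked non-uniform or outlying per array were left out. Symbols came from a RefSeq gene table, for 27131 of 43653 probes. Its assembly is newer than that of the array's annotation, so no positions are given, and no sequences are printed.

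A probe was tested when the scanner software called it well above background on every array of CONT or REST. REST was compared with CONT by limma 3.58.1 (R 4.3.3; lmFit, eBayes) with the cow as a block, two-sided, with Benjamini-Hochberg adjustment over 19403 probes and the threshold of 0.1 that the methods give. The cow comes from the labels' animal identity: deviations from the group means had r = 0.36 to 0.57 between samples of a cow and -0.33 to 0.13 between cows. For named genes, 1 probe was used, the tested one with the highest mean signal. All 9 members were named, with at most 4 called genes a list by absolute change, STAT2, IRF9, IFNAR1, IFNAR2, IFNGR1, USP18 and the 5 genes nearest to the members' mean. Another gene that this rule names is not reported here, although the counts include it. Other genes were named after their values were seen, as were the fit without slide 3 and all alternatives for pathway genes. Alternatives were tried 1 at a time for the block, normalization, background, filter, marked spots, moderation, probe and cows; normexp used the spot median signal. The fit was also run on simulated data, with added changes larger than the mean change of any member, so that run does not speak to changes of the members' size. The number of arrays limits the precision. Python 3.11.15, pandas 2.3.3 and matplotlib 3.10.9 were used.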

Additional observations from a re-analysis of the deposited data

Results flagged for a closer look

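In 2 of 64 groups of 6 values, 1 sample stood far from the others (Dixon's ratio of the gap to the range, 0.699 for MX1 and 0.694 for IFNAR2). Chance alone flags about 1 in 20 groups, or 3.2 of 64. MX1 (A_73_P110771) was at -1.43 in the CONT sample of cow 1, against -0.56 to -0.18 in the other CONT samples, and the other tested MX1 probe was lowest in the same sample. IFNAR2 (A_73_114729) was at -0.13 in the CONT sample of cow 2, against -0.86 to -0.63 in the others.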

How the results depend on the processing

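The number of probes called, 3104 with the cow as a block, was 836 without the block, 1898 with the slide as block in its place, 388 without the filter on dim probes and 1852 without moderation. It ran from 1045 to 3291 when 1 cow was left out. Of the members, 1 (IRF1) was called under normexp and without cow 3 (0 to 1 over the 6 cows left out), and 0 under the other alternatives. The median change over the members ran from 0.04 to 0.21 with 1 cow left out, was 0.064 under normexp and kept its direction.

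The other interferon pathway genes called higher, 7, were 1 without the cow block, 3 with the slide as block, 16 under normexp, 0 without the filter, 3 without moderation and 3 to 9 with 1 cow left out. Those called lower, 4, were 2 without the cow block, 0 without the filter, 8 without slide 3 and 2 to 7 with 1 cow left out. Without the cow block, of the called pathway genes named here HERC6, IFI27 and ICAM1 stayed under the threshold. ICAM1 was tested only through REST, the group where it was higher, and under normexp its change was 0.16 (limma adjusted p = 0.388).

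With 1 cow left out, the change ran from -0.018 to 0.21 for ISG15, -0.019 to 0.25 for MX1, -0.054 to 0.099 for IFI6, 0.24 to 0.51 for IRF1, 0.042 to 0.20 for IRF7, -0.070 to 0.93 for IDO1 and -0.33 to 0.54 for CXCL11. Without slide 3 it was -0.068 for ISG15, -0.031 for IFI6, -0.50 for IDO1, -0.027 for CXCL10, -0.66 for CXCL11 and -0.058 for OAS1Y. Under normexp it was 0.056 for MX1, 0.067 for DHX58, -0.00071 for IDO1, -0.054 for CXCL11 and -0.19 for RSAD2. The cause of these shifts was not tested.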
